A study of Homo sapiens with 9 samples.

Results

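Interferon-stimulated genes other than the OAS family were followed in GM12878, a line of human B cells immortalised with Epstein-Barr virus, during exposure to sulforaphane, an isothiocyanate from cruciferous vegetables. The list named 39 genes, and a gene was measured where a transcript cluster of the array carried its symbol and no other. That held for 36 of the 39, out of 14232 genes with such a cluster. STAT2, USP18 and GBP1 had none, and no member had more than 1, so the choice of the brightest cluster for a gene never arose. All groups came from this 1 cell line, plated at a density of 900000 cells per ml with 15% serum in the medium, with 3 cultures and 3 arrays per group. The groups were untreated cells at 0 h, cells after 8 h in 10 µM D,L-sulforaphane, and cells after 24 h in the same dose. No array of vehicle-treated cells or of untreated cells kept for 8 or 24 h was used here. Sulforaphane therefore cannot be told apart from its DMSO vehicle or from time in culture. Both comparisons with 0 h share their 3 control arrays.

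Type I interferons bind a receptor whose kinases activate ISGF3, a transcription factor that contains STAT2 and IRF9 and binds the interferon-stimulated response element in the promoters of many genes. The genes it switches on include sensors of viral RNA, effectors that block viral entry, translation or release, the ubiquitin-like protein ISG15, and the regulators themselves, so the system feeds back on its own level. Lymphoblastoid lines are known to keep part of this programme active without added interferon, and the viral protein LMP1 is known to induce IRF7.

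The response element was looked for in RefSeq promoters (GRCh38.p14), which span 250 bases before to 50 bases after a gene's start. The core searched was GAAA, any 2 bases, and GAAA again, on either strand, with overlapping matches counted. It occurred in 3.57% of all 35116 promoters. Of the 31 measured members with a promoter in the table, 23 (74.2%) held it in at least 1 of their promoters; IRF7, DHX58, IFIT2, MX2 and TRIM22 had no entry. Counted by promoter, which is the unit of the overall share, 28 of 43 member promoters (65.1%) held it. The windows printed here lie before the start of the 6 members with the smallest F-test p among those described array by array that hold the core; they show the element the family shares, and capitals mark the core.
IFITM1: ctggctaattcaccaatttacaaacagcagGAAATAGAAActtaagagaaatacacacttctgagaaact
BST2: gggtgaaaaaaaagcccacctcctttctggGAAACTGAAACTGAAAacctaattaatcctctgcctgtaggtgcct
MX1: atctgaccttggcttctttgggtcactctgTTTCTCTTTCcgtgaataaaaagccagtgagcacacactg
IFIT1: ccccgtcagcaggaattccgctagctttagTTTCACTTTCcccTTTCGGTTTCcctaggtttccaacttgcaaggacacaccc
EPSTI1: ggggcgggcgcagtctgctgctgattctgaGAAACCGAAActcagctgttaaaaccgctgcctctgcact
IFIT5: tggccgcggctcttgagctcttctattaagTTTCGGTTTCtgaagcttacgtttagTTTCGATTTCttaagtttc

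These windows lie at chr11:313970-314039 (IFITM1, plus strand), chr19:17405715-17405790 (BST2, minus strand), chr21:41431824-41431893 (MX1, plus strand, before 1 of its listed starts), chr10:89392477-89392559 (IFIT1, plus strand), chr13:42992252-42992321 (EPSTI1, minus strand) and chr10:89414493-89414567 (IFIT5, plus strand). BST2, IFIT1 and IFIT5 each held 2 matches, which overlap in BST2. The match nearest the start lay 10 bases before it in IFIT5, 31 in IFITM1, 41 in EPSTI1, 94 in IFIT1, 115 in BST2 and 187 in MX1. The gamma-activated site (TTC, any 3 bases, GAA), an element of interferon gamma responses, was in 30.2% of member promoters and 7.66% of all promoters. The core of the antioxidant response element, bound by NRF2 (TGAC, any 3 bases, GC, on either strand), was in 20.9% of member promoters and 13.3% of all. A match is only a run of letters and does not show that a factor binds there.

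One control array, untreated replicate 2, differed from the rest, with an upper-quartile log2 signal of 9.28 against 9.54 and 9.49 on the other untreated arrays and 9.42 to 9.63 on the treated ones. It was the lowest untreated array for 24 of the 36 members (66.7%), against 44.9% of all 22011 clusters, and lay more than 0.5 below the mean of the other 2 untreated arrays for 12 members (33.3%), against 14.8% of clusters. Across members the median standard deviation was 0.18 for the untreated group, 0.098 for the 8 h group and 0.089 for the 24 h group. Over all clusters it was 0.15, 0.091 and 0.092, so the wider untreated group was not particular to the members. The wider control side held for the median and not for every member. IFIH1, HERC5, SAMD9 and IFI44 were among those wider at 0 h than at 8 h, and DHX58, MX1, IFITM1 and IFIT2 among those wider at 8 h. The limma errors use 1 spread estimate per cluster over all groups. Because untreated replicate 2 differed, results are also given without it. Separately, 13 members (36.1%, against 38.4% of clusters) had exactly the same deposited value on 2 or more arrays, and RSAD2 had 3 equal arrays at 8 h. B-cell markers were measured for 9 of the 10 listed genes, with mean log2 signals from 9.72 to 13.43 and a median difference of -0.053 at 24 h. The only call in limma was BLK, a B-cell kinase, which rose by 0.44 ± 0.08 at 24 h (adjusted p = 0.0381), where 0.831% of all clusters were called higher. Without untreated replicate 2 BLK missed the threshold (adjusted p = 0.0693). Of 23 measured markers of T cells, plasmacytoid dendritic cells, monocytes, epithelium and fibroblasts, 0 were called by limma in any comparison. At an unadjusted p below 0.05, 5 were lower and 0 higher at 8 h, against 6.57% and 8.55% of all clusters. At 24 h, 4 were lower and 0 higher, against 6.45% and 13.9%. Mean log2 signals ran from 5.74 to 9.28 for T-cell markers and from 6.09 to 9.90 for those of plasmacytoid dendritic cells. They ran from 3.82 to 11.26 for epithelial markers and from 4.38 to 8.38 for fibroblast markers. The 5 monocyte markers had mean log2 signals from only 4.90 to 7.35 and a median difference of -0.28 at 8 h. The part of these markers in the results was not tested.

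After 8 h, most members were lower than in untreated cells, by small amounts. The difference was below 0 for 29 of 36 members and above 0 for 7, with a median of -0.25 log2 units against -0.012 for all clusters. For 13 members (36.1%) all 3 arrays at 8 h lay below all 3 untreated arrays, against 8.55% of all clusters, and for 2 (5.56%), IFIT2 and BST2, all lay above, against 9.06%. The 13 were IRF7, RIGI, DHX58, IFIT5, ISG15, MX1, MX2, IFITM1, IFI6, IFI35, IFI44L, EPSTI1 and PLSCR1. Only DHX58 passed the limma test adjusted over all clusters (Benjamini-Hochberg, adjusted p below 0.05, two-sided), and 35 members did not pass. That is 1 member lower, where 0.327% of clusters were called lower, and 0 higher, where 0.268% were; at an unadjusted p below 0.05, 16 members were lower and 2 higher, against 6.57% and 8.55% of clusters. In RNA from a whole culture, fewer cells expressing a gene and less RNA per cell cannot be told apart.

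Without untreated replicate 2 the median member difference at 8 h was -0.28, and 7 members passed, all of them lower, against 0.977% of clusters. They were DHX58, SAMD9L, IFI6, IFI35, IFI44L, DDX60 and PLSCR1. IFIH1, HERC5 and EIF2AK2 turned from above to below 0 in that fit, and CMPK2 from below to above. The number of members called was 0 without untreated replicate 3 or any 1 of the arrays at 8 h or 24 h. In those fits only 0.0409% to 0.377% of all clusters were called. It was 1 without untreated replicate 1, where 2.97% of clusters were called. At 8 h, replicate 2 was the lowest of the 9 arrays for 14 members, more than the 11 of untreated replicate 2. Without it the median member difference at 8 h was -0.18 (-0.0021 for all clusters), and 29 members were still below 0.

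After 24 h the members were more mixed. The difference from 0 h was below 0 for 22 members and above 0 for 14, with a median of -0.056 against 0.017 for all clusters. Dropping untreated replicate 2 gave 27 below and 9 above 0, since IRF9, IFIT5, SAMD9, SAMD9L, IFI44, PARP9 and SP110 turned below 0. Groups did not overlap for 9 members that were lower (25%, against 8.75% of clusters): DHX58, IFIT1, ISG15, MX1, MX2, IFI35, EPSTI1, XAF1 and LGALS3BP. They did not overlap for 3 that were higher (8.33%, against 15.6%): IFIT2, BST2 and TRIM22. In limma, 1 member rose, BST2 (0.831% of clusters were called higher), 1 fell, XAF1 (0.791% were called lower), and 34 did not pass. Without untreated replicate 2 neither passed, and the 2 members called were DDX60 and PLSCR1, both lower, against 0.981% of clusters; the median member difference was then -0.091. Leaving out 1 of the other arrays gave 2 called members when 8 h replicate 2 was dropped, against 1.56% of clusters. It gave 1 when untreated replicate 1 was dropped, against 3.49%. For the remaining arrays it gave 0, against 0.0954% to 0.459%. Rescaling also moved signs near 0 at 24 h: IFIT5 and ISG20 turned below 0 under quantile normalization and under centring of array medians, SAMD9L and PARP9 under the first alone, and IFI44 under the second alone.

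**Figure D1:**
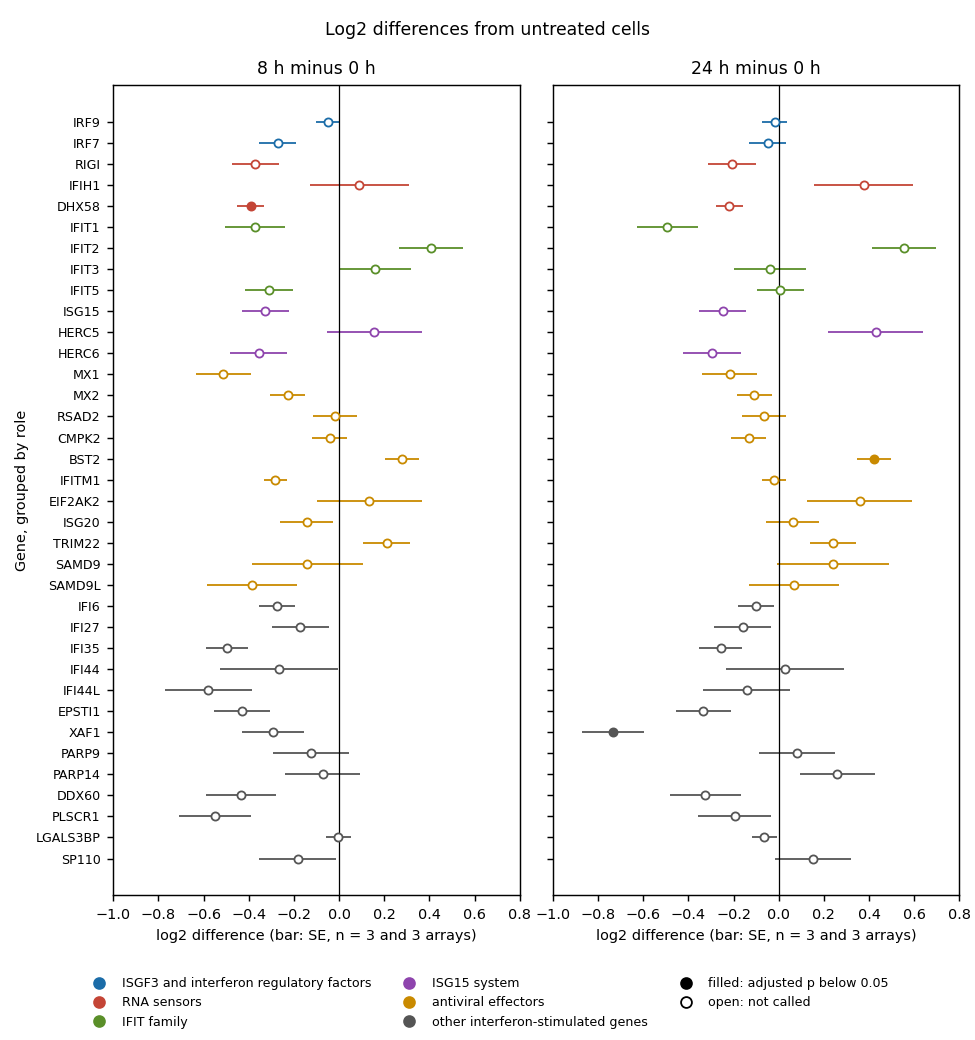
Log2 differences of the 36 genes (vertical axis, grouped and coloured by role) at 8 h (left) and 24 h (right) from untreated cells; points are means of 3 minus 3 arrays, bars are limma standard errors, and filled points have an adjusted p below 0.05. Most points lie left of 0 at 8 h, where DHX58 alone is filled; at 24 h BST2 (0.42) and XAF1 (-0.73) are filled.

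Most members had higher values at 24 h than at 8 h. All 3 arrays at 24 h lay above all 3 arrays at 8 h for 16 members (44.4%), against 15.2% of clusters, and below for XAF1 and LGALS3BP (5.56%), against 6.4%. The 16 were IRF7, DHX58, IFIT5, ISG15, HERC5, MX1, IFITM1, SAMD9, SAMD9L, IFI6, IFI35, IFI44, IFI44L, PARP14, PLSCR1 and SP110. The median member difference was 0.17, against 0.024 for all clusters. No untreated array enters these differences, although untreated arrays still add to the shared error. In limma 0 members were called higher (0.1% of clusters were) and 0 lower (0.227% were), with 6 higher and 1 lower at an unadjusted p below 0.05, against 6.91% and 3.45% of clusters. Without untreated replicate 2, 1 member, PLSCR1, passed as higher, against 0.332% of clusters. The F-test over the 3 time points called 1 member, DHX58, against 1.35% of clusters. It called 7 members when untreated replicate 2 was dropped, against 1.95% of clusters. It called 0 when untreated replicate 1 was dropped, also against 1.95%, and 0 without any other array, against 0.168% to 0.854%.

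**Figure D2:**
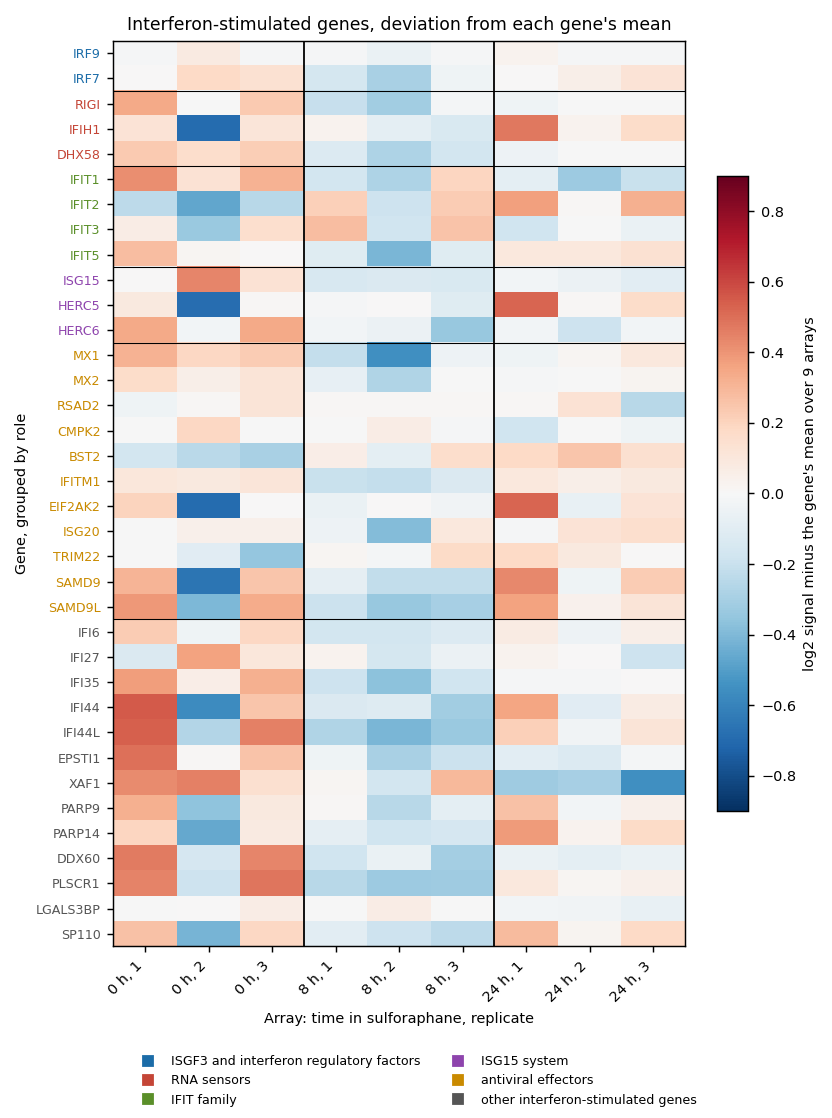
Deviation of each gene (rows, grouped and coloured by role) from its own mean log2 signal over 9 arrays (columns, by time and replicate number); red is above and blue below that mean. The columns at 8 h are mostly blue, and untreated replicate 2 is strongly blue for IFIH1, HERC5, EIF2AK2, SAMD9 and IFI44 while the other untreated arrays are not.

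Of the regulators, IRF7, which drives interferon alpha genes, had log2 signals of 9.16, 9.33 and 9.29 in untreated cells, 8.99, 8.86 and 9.11 at 8 h, and 9.16, 9.20 and 9.27 at 24 h. The arrays at 8 h were the 3 lowest of the 9, and those at 24 h lay within the untreated range. The difference was -0.27 ± 0.08 (SE) at 8 h (adjusted p = 0.179) and -0.05 ± 0.08 at 24 h (adjusted p = 0.734). IRF9, the DNA-binding subunit of ISGF3, had 10.64, 10.73 and 10.64 at 0 h, 10.64, 10.58 and 10.64 at 8 h, and 10.67, 10.64 and 10.64 at 24 h. The value 10.637 was shared by 5 of the 9 arrays, and the groups overlapped in every comparison. The IRF9 difference at 8 h was -0.05 ± 0.05 (adjusted p = 0.67). STAT2 was not measured on its own, so ISGF3 was seen here through IRF9 alone.

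All 3 sensors of the RIG-I-like family were measured. DHX58 (LGP2), a helicase that tunes RIG-I and MDA5 and lacks their signalling domains, had 8.47, 8.40 and 8.46 at 0 h. At 8 h its values were 8.12, 7.97 and 8.08, and at 24 h 8.20, 8.24 and 8.24. The groups were separate in all 3 comparisons, with 8 h lowest and 24 h between. DHX58 fell by 0.39 ± 0.06 at 8 h (adjusted p = 0.0375), to a level 1.31-fold lower; at 24 h the difference was -0.22 ± 0.06 (adjusted p = 0.118) and from 8 h to 24 h it was 0.17 ± 0.06 (adjusted p = 0.349). The call at 8 h held without untreated replicate 1 or 2 and was lost without any 1 of the other 7 arrays and in a fit of only the 2 groups, with adjusted p-values from 0.00013 to 0.18 over all alternatives.

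RIGI, the sensor of viral RNA with a triphosphate end, had 7.95, 7.61 and 7.85 at 0 h, 7.40, 7.30 and 7.59 at 8 h, and 7.57, 7.61 and 7.61 at 24 h. All arrays at 8 h lay below the untreated ones, by -0.37 ± 0.11 (adjusted p = 0.158), or by -0.47 ± 0.09 without untreated replicate 2 (adjusted p = 0.0689). IFIH1 (MDA5), which detects long double-stranded RNA, had 9.07, 8.25 and 9.06 at 0 h, 8.98, 8.86 and 8.81 at 8 h, and 9.42, 8.98 and 9.11 at 24 h. Untreated replicate 2 was the lowest of all 9 arrays for IFIH1. Its difference at 8 h was 0.09 ± 0.22 with that array and -0.18 ± 0.13 without it, and neither passed (adjusted p = 0.86 and 0.613).

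The 4 IFIT genes, whose proteins bind viral RNA or each other and block its translation, did not share a direction. IFIT1 had 6.82, 6.54 and 6.72 at 0 h, 6.24, 6.13 and 6.60 at 8 h, and 6.32, 6.08 and 6.20 at 24 h. Its arrays at 24 h were all below the untreated ones, with a difference of -0.49 ± 0.13 (adjusted p = 0.116). IFIT2 had 7.88, 7.65 and 7.87 at 0 h, 8.34, 7.93 and 8.35 at 8 h, and 8.49, 8.13 and 8.44 at 24 h. It was above the untreated range at both times, by 0.41 ± 0.14 at 8 h (adjusted p = 0.237) and 0.55 ± 0.14 at 24 h (adjusted p = 0.105). The array numbered 2 was the lowest of its group at all 3 times for IFIT2. IFIT5 had 8.34, 8.09 and 8.07 at 0 h, 7.96, 7.66 and 7.96 at 8 h, and 8.16, 8.16 and 8.20 at 24 h. It was lowest at 8 h, with a difference of -0.31 ± 0.11 (adjusted p = 0.226), and within the untreated range at 24 h. IFIT3 differed by 0.16 ± 0.16 at 8 h and -0.04 ± 0.16 at 24 h, with overlapping groups. IFIT2 and IFIT3 are next to each other among protein-coding genes, and so are IFIT1 and IFIT5; at 8 h the differences of the first pair were above 0 and those of the second below 0. The IFIT genes are paralogues, and how far their probes pick up each other's transcripts was not tested.

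In the ISG15 system, ISG15 itself, a ubiquitin-like protein joined to other proteins, had 8.76, 9.20 and 8.89 at 0 h. It had 8.62, 8.63 and 8.62 at 8 h, and 8.74, 8.71 and 8.66 at 24 h. All treated arrays lay below all untreated ones, and untreated replicate 2 was the highest. The ISG15 difference at 8 h was -0.33 ± 0.10 (adjusted p = 0.195), and -0.20 ± 0.06 without untreated replicate 2 (adjusted p = 0.168). HERC5, the ligase that attaches ISG15, had 7.63, 6.86 and 7.56 at 0 h, 7.53, 7.55 and 7.44 at 8 h, and 8.07, 7.56 and 7.70 at 24 h. Its sign at 8 h depended on untreated replicate 2, at 0.16 ± 0.21 with it and -0.09 ± 0.14 without it (adjusted p = 0.732 and 0.866). HERC6, a relative of HERC5 and its neighbour in the genome, had 6.69, 6.33 and 6.69 at 0 h, 6.33, 6.30 and 6.01 at 8 h, and 6.33, 6.17 and 6.33 at 24 h. The value 6.329 was shared by 4 arrays, and the difference of -0.36 ± 0.13 at 8 h did not pass (adjusted p = 0.241).

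USP18, which removes ISG15 and also damps the interferon receptor, shared its cluster with USP41P and was not counted. That shared cluster had 8.91, 9.39 and 9.15 at 0 h, 8.48, 8.32 and 8.63 at 8 h, and 8.61, 8.63 and 8.61 at 24 h. All treated arrays were below all untreated ones, by -0.67 ± 0.13 at 8 h (adjusted p = 0.064) and -0.54 ± 0.13 at 24 h (adjusted p = 0.0841). GBP1, a guanylate-binding protein, shared its cluster with GBP3. The cluster had 8.91, 8.36 and 8.86 at 0 h, 7.86, 7.85 and 7.67 at 8 h, and 8.08, 7.60 and 8.01 at 24 h. Here too no treated array reached the untreated range; the difference was -0.92 ± 0.17 at 8 h (adjusted p = 0.067) and -0.81 ± 0.17 at 24 h (adjusted p = 0.0671). Without untreated replicate 2 the GBP1 and GBP3 cluster passed at both times, with -1.09 ± 0.14 (adjusted p = 0.0232) and -0.99 ± 0.14 (adjusted p = 0.0322). These shared signals cannot be assigned to 1 of the 2 genes.

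Among 11 measured antiviral effectors, 1 rose at 24 h and the median difference was -0.14 at 8 h and 0.061 at 24 h; without untreated replicate 2 none was called at 24 h and that median was -0.068. BST2 (tetherin), which holds budding virus at the cell surface, had 10.04, 9.96 and 9.91 at 0 h, 10.26, 10.12 and 10.36 at 8 h, and 10.38, 10.45 and 10.34 at 24 h. Both treated groups lay above the untreated one. BST2 rose by 0.42 ± 0.08 or 1.34-fold at 24 h (adjusted p = 0.0409), after a difference of 0.28 ± 0.08 at 8 h (adjusted p = 0.144). The call was lost under quantile normalization, centring of array medians and a fit of only the 2 groups, and without any 1 array except untreated replicate 1 or 8 h replicate 2. A second cluster, shared by PLVAP and BST2, differed by -0.0059 ± 0.09 at 24 h (adjusted p = 0.973).

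IFITM1, a membrane protein that hinders viral fusion, had 12.28, 12.26 and 12.28 at 0 h, 11.97, 11.96 and 12.04 at 8 h, and 12.26, 12.23 and 12.26 at 24 h. It was lower at 8 h than at both other times with no overlap, and its groups were the tightest of the effectors shown. The difference was -0.28 ± 0.05 at 8 h (adjusted p = 0.06), -0.02 ± 0.05 at 24 h and 0.26 ± 0.05 from 8 h to 24 h (adjusted p = 0.12). MX1, a dynamin-like GTPase that traps viral nucleocapsids, had 10.32, 10.20 and 10.24 at 0 h, 9.79, 9.46 and 9.97 at 8 h, and 9.97, 10.03 and 10.11 at 24 h. Its order was 0 h, then 24 h, then 8 h, with no overlap between neighbours; the difference was -0.51 ± 0.12 at 8 h (adjusted p = 0.105) and -0.22 ± 0.12 at 24 h (adjusted p = 0.321). MX2, its paralogue and neighbour, had -0.23 ± 0.08 at 8 h (adjusted p = 0.226) and -0.11 ± 0.08 at 24 h.

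The other effectors did not pass in any comparison. RSAD2 (viperin), which makes a chain-terminating nucleotide, differed by -0.02 ± 0.10 at 8 h and -0.06 ± 0.10 at 24 h. CMPK2, a nucleotide kinase and the neighbour of RSAD2, differed by -0.04 ± 0.08 and -0.13 ± 0.08. ISG20, an exonuclease, differed by -0.14 ± 0.12 and 0.06 ± 0.12. These 3 genes had overlapping groups at both times. TRIM22, a ubiquitin ligase, was at 0.21 ± 0.10 at 8 h and 0.24 ± 0.10 at 24 h (adjusted p = 0.237), with all arrays at 24 h above the untreated range. Another cluster, shared by TRIM5 and TRIM22, was at -0.12 ± 0.12 at 8 h and 0.096 ± 0.12 at 24 h. EIF2AK2 (PKR), the kinase that stops translation on sensing double-stranded RNA, was at 0.13 ± 0.23 at 8 h and 0.36 ± 0.23 at 24 h. The cluster shared by EIF2AK2 and ARL14EP was at 0.14 ± 0.10 and 0.18 ± 0.10. SAMD9 and SAMD9L, neighbouring paralogues that restrict poxviruses, were at -0.14 ± 0.25 and -0.39 ± 0.20 at 8 h. EIF2AK2, SAMD9 and SAMD9L had large errors, and for each of them untreated replicate 2 was the lowest of the 9 arrays. Without it EIF2AK2 was at -0.13 ± 0.16 at 8 h and 0.093 ± 0.16 at 24 h, and SAMD9 was at -0.45 ± 0.13 at 8 h (adjusted p = 0.171). SAMD9L had 10.17, 9.38 and 10.11 at 0 h and 9.59, 9.44 and 9.48 at 8 h; it fell by 0.64 ± 0.10 at 8 h once that array was left out (adjusted p = 0.039).

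The remaining 13 members have other or less settled roles, and all 13 differences at 8 h were below 0, from -0.58 to -0.0031. XAF1, an antagonist of the apoptosis inhibitor XIAP, had 9.64, 9.66 and 9.36 at 0 h, 9.23, 9.05 and 9.50 at 8 h, and 8.89, 8.91 and 8.66 at 24 h. Its arrays at 24 h were below all others, whereas 8 h and 0 h overlapped. XAF1 fell by 0.73 ± 0.14 at 24 h, to a level 1.66-fold lower (adjusted p = 0.0462). The difference from 8 h to 24 h was -0.44 ± 0.14 (adjusted p = 0.304), opposite in sign to that of most members. Leaving out any 1 array other than 8 h replicate 2, or fitting only the 2 groups, ended the call, with adjusted p-values from 0.00133 to 0.153 over all alternatives.

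IFI35, which pairs with the interferon-induced protein NMI, had 10.10, 9.78 and 10.04 at 0 h. It had 9.53, 9.35 and 9.54 at 8 h, and 9.71, 9.71 and 9.72 at 24 h. The 3 groups were fully separate, with 8 h lowest; the difference at 8 h was -0.50 ± 0.09 (adjusted p = 0.0662), and without untreated replicate 2 IFI35 fell by 0.59 ± 0.07 (adjusted p = 0.0191). EPSTI1 had 8.17, 7.69 and 7.94 at 0 h, 7.64, 7.38 and 7.49 at 8 h, and 7.58, 7.56 and 7.66 at 24 h. All its treated arrays were below the untreated ones, by -0.43 ± 0.12 at 8 h (adjusted p = 0.161) and -0.33 ± 0.12 at 24 h (adjusted p = 0.202).

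**Figure D3:**
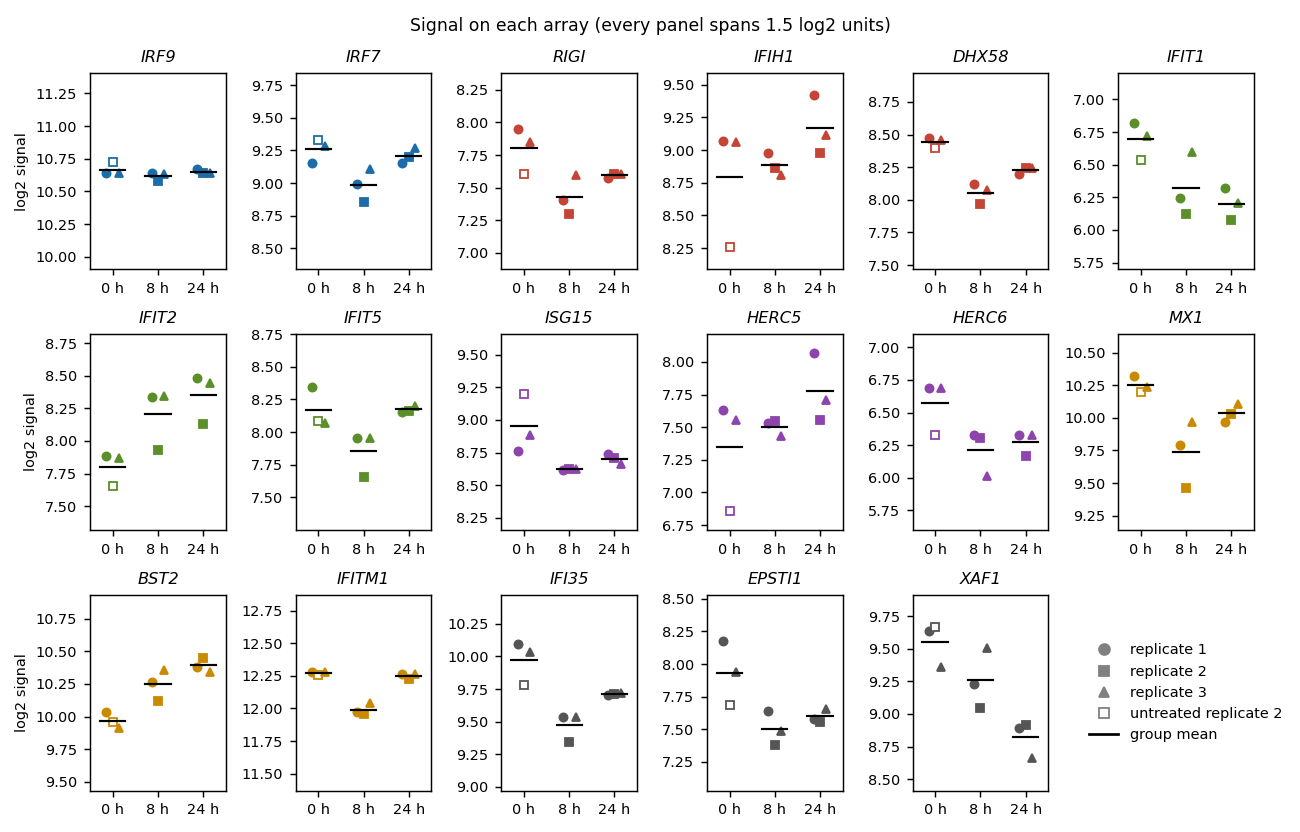
Log2 signal (vertical axis) of 17 genes on each array at 0, 8 and 24 h; symbols mark replicate numbers, open squares are untreated replicate 2, and bars are group means. IFITM1, MX1, DHX58 and IFI35 are lowest at 8 h, XAF1 is lowest at 24 h, and BST2 and IFIT2 are higher at both treated times.

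Of the others in that class, 4 missed the threshold at 8 h with all 9 arrays and passed when untreated replicate 2 was left out; they were singled out after their values were seen. PLSCR1, a phospholipid scramblase, had 7.93, 7.30 and 7.97 at 0 h, 7.23, 7.15 and 7.16 at 8 h, and 7.58, 7.50 and 7.53 at 24 h. Untreated replicate 2 lay just above the 8 h arrays, far from its 2 fellow controls. The difference at 8 h was -0.55 ± 0.16 with it (adjusted p = 0.169) and -0.76 ± 0.05 without it (adjusted p = 0.00536). IFI44L had 10.77, 9.97 and 10.68 at 0 h and 9.96, 9.82 and 9.90 at 8 h, a difference of -0.58 ± 0.19 (adjusted p = 0.218) that became -0.83 ± 0.09 (adjusted p = 0.0163). DDX60, a helicase linked to RIG-I signalling, had 6.03, 5.41 and 6.0 at 0 h and 5.39, 5.50 and 5.26 at 8 h. Its difference went from -0.43 ± 0.16 (adjusted p = 0.25) to -0.64 ± 0.07 (adjusted p = 0.0181). IFI6, a membrane protein that protects cells from flaviviruses, went from -0.27 ± 0.08 (adjusted p = 0.169) to -0.36 ± 0.06 (adjusted p = 0.0402).

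The last 6 did not pass with or without that array. IFI44, the neighbour of IFI44L, was at -0.27 ± 0.26 at 8 h, and the gap of its untreated replicate 2 to the mean of the other untreated arrays, -0.96, was the widest among the members. SP110, a nuclear body protein, was at -0.18 ± 0.17, and the ADP-ribosyltransferase family members PARP9 and PARP14 were at -0.12 ± 0.17 and -0.07 ± 0.17. IFI27, a mitochondrial protein, was at -0.17 ± 0.13. LGALS3BP, a secreted glycoprotein, was at -0.0031 ± 0.05. With untreated replicate 2 left out, the 8 h differences were -0.59 ± 0.15 for IFI44, -0.40 ± 0.09 for SP110 (adjusted p = 0.0912), -0.31 ± 0.12 for PARP9 and -0.27 ± 0.10 for PARP14, all farther from 0. That of IFI27 was -0.047 ± 0.10, closer to 0. With IFI6, IFI35, IFI44L, EPSTI1, XAF1, DDX60 and PLSCR1 above, these are 13 genes.

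**Figure D4:**
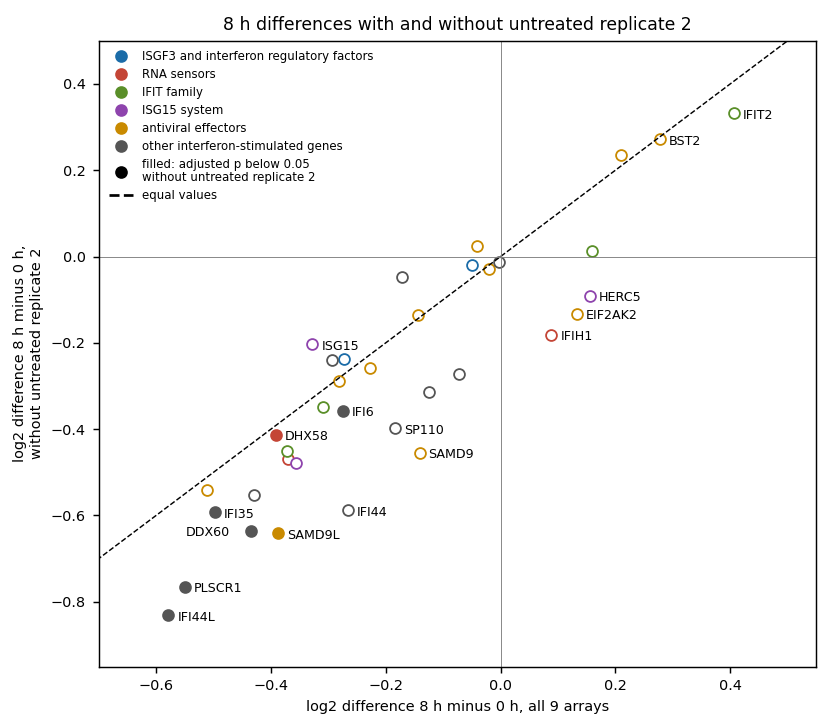
Log2 difference at 8 h from untreated cells for the 36 genes, from all 9 arrays (horizontal axis) and without untreated replicate 2 (vertical axis); the dashed line marks equal values and filled points passed without that array. Most points lie on or below the line, and the 7 filled ones run from IFI6 (-0.36) to IFI44L (-0.83).

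By role, the median difference at 8 h was -0.37 for the 3 sensors, -0.33 for the 3 measured genes of the ISG15 system, -0.27 for the 13 other genes, -0.16 for the 2 regulators, -0.14 for the 11 effectors and -0.075 for the 4 IFIT genes. At 24 h the medians were -0.21, -0.25, -0.14, -0.033, 0.061 and -0.016 in the same order. Without untreated replicate 2 the 8 h medians were -0.41, -0.20, -0.40, -0.13, -0.14 and -0.17. At 24 h that fit gave -0.24, -0.12, -0.29, -0.00030, -0.068 and -0.11. The order of the roles therefore depended on untreated replicate 2: the other genes moved from the third lowest 8 h median to a value near that of the sensors, and the median of the ISG15 genes lay closer to 0. Roles were mixed inside: all 8 h arrays of DHX58 and RIGI lay below the untreated ones and those of IFIH1 did not, and MX1 and IFITM1 lay below while BST2 lay above. The medians of the roles were not tested against each other. Members holding the response element core had a median of -0.17 at 8 h (n = 23), and the 8 with a promoter and no core had -0.33.

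Other genes of the pathway were taken from a fixed list of 119, of which 87 had a cluster of their own. At 8 h, 4 fell, 0 rose and 83 did not pass in limma; at an unadjusted p below 0.05, 20 were lower and 7 higher, against 6.57% and 8.55% of all clusters. At 24 h, 2 fell, 0 rose and 85 did not pass, with 7 lower and 7 higher at an unadjusted p below 0.05, against 6.45% and 13.9% of all clusters. From 8 h to 24 h, 0 were called, with 12 higher and 1 lower unadjusted, against 6.91% and 3.45%. At the adjusted threshold the shares of all clusters were those given for the members. The median difference of the 87 was -0.082 at 8 h, 0.011 at 24 h and 0.13 from 8 h to 24 h.

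Only 9 of 21 listed interferon genes were measured. Their mean log2 signals, from 4.15 to 7.68, lay below the array medians of 7.99 to 8.13, so a fall could be missed. Of these 9, 0 were called in any comparison by limma, and 0 were lower or higher at an unadjusted p below 0.05. IFNA5 and IFNA6 had the smallest F-test p-values, 0.153 and 0.276. Of 9 receptor and JAK-STAT genes 0 were called; IFNAR1, a subunit of the type I receptor, was at 0.55 ± 0.17 at 8 h (adjusted p = 0.178), and STAT3 was at 0.12 ± 0.06 at 24 h. Among 6 other interferon regulatory factors 0 were called, with IRF4 at 0.32 ± 0.09 at 8 h (adjusted p = 0.145) and IRF5 at 0.33 ± 0.11 at 24 h. Of 9 feedback genes 0 were called; SOCS1, an inhibitor of the receptor kinases, was at -0.32 ± 0.07 at 8 h (adjusted p = 0.0795) and SOCS3 at -0.23 ± 0.07.

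Of 18 adaptors, kinases and receptors of nucleic acid sensing, IKBKE, which phosphorylates IRF3 and IRF7, fell by 0.52 ± 0.08 at 8 h (adjusted p = 0.0411) and was at -0.11 ± 0.08 at 24 h. TRIM25, the ligase that helps to activate RIG-I, fell by 0.32 ± 0.06 at 24 h (adjusted p = 0.0462), a call that missed without untreated replicate 2 (adjusted p = 0.0699). In that fit IKBKE still passed at 8 h (adjusted p = 0.0163). STING1, of the same list, also passed there as lower, at -0.50 (adjusted p = 0.0425), against 0.977% of clusters. Among 32 further interferon-stimulated genes 0 were called with all 9 arrays. At an unadjusted p below 0.05, 9 were lower and 1 higher at 8 h, against 6.57% and 8.55% of all clusters. PARP12 was at -0.43 ± 0.08 (adjusted p = 0.0689) and SLFN5 at -0.37 ± 0.10. Without untreated replicate 2, PARP12 and UBA7 passed in limma as lower at 8 h (adjusted p = 0.0337 and 0.0473). The largest 8 h difference in this list was a higher value, 0.80 ± 0.19 for ZC3HAV1 (adjusted p = 0.106), which was at 0.19 ± 0.19 at 24 h. With all 9 arrays, the remaining falls in these lists were in the OAS genes, whose products activate RNase L. OAS1, OAS2 and OAS3 fell at 8 h by 0.64 ± 0.08, 0.63 ± 0.10 and 0.58 ± 0.07 (adjusted p = 0.0193, 0.0424 and 0.0178). Only OAS3 of these passed at 24 h, where it fell by 0.70 ± 0.07 (adjusted p = 0.00874).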

How the data were processed

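RNA of 9 cultures was hybridised to Affymetrix Human Exon 1.0 ST arrays. Per the labels, the authors summarised core transcript clusters using Affymetrix Expression Console (RMA, sketch-quantile), and deposited log2 signals. Software versions were not given in the sources used here, nor was the genome build, so no gene positions are given; promoter coordinates are those of the RefSeq table. All 22011 clusters were fitted as deposited with limma 3.58.1 (R 4.3.3), 1 mean per group, moderated two-sided tests and Benjamini-Hochberg adjustment over all clusters; the fit was tested on simulated data. The p-values measure the spread between cultures of 1 line. Arrays hold no counts, and their number limits the precision. The members and lists were chosen with earlier results of these data known. Every member was named. Values per array were given for members called in a comparison or by the F-test and for the 3 smallest F-test p-values per role; 4 of the other members that passed without untreated replicate 2, and the shared clusters, were added after their values were seen. From each pathway list up to 4 called genes were named, or the 2 with the smallest F-test p. ZC3HAV1, UBA7 and STING1 were added after their values were seen. Alternatives were a replicate block, other scalings, variance models and weights, a filter on the lowest 25% of clusters (32 of 36 members passed it), 2-group fits and leaving out each array. IFIT1, RSAD2, HERC6 and DDX60 did not pass that filter.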

Additional observations from a re-analysis of the deposited data

How the results depend on the processing

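Counts of called members depended on the fit. At 8 h the 1 call became 0 with a replicate block or only the 2 groups, 2 without the lowest 25% of clusters or with array medians centred, 3 with same-symbol clusters averaged, 5 with quantile normalization, 24 with array weights and 14 with weights fitted gene by gene, a setting added after seeing the data because the default weights did not converge and gave untreated replicate 3 a weight of 29.8. At 24 h the 2 calls became 1 with the replicate block (IFIT2) or medians centred, 0 with only the 2 groups, and 19 and 9 with the weights. With quantile normalization they became 3, all lower: DHX58, IFI35 and XAF1. From 8 h to 24 h the 0 became 6 and 5 with the weights. The F-test count of 1 became 2 with trended and robust eBayes, 3 without the lowest clusters, with quantile normalization or with medians centred, 4 with clusters averaged, and 28 and 16 with the weights. Leaving out each array gave 0 to 7 at 8 h, 0 to 2 at 24 h, 0 to 1 from 8 h to 24 h and 0 to 7 for the F-test. The shares of all clusters called in those fits ran from 0.0409% to 2.97% at 8 h and 0.0954% to 3.49% at 24 h. They ran from 0.0182% to 0.727% from 8 h to 24 h and 0.168% to 1.95% for the F-test. With array weights 43.6% of all clusters were called at 8 h, 40.9% at 24 h, 6.89% from 8 h to 24 h and 53.6% by the F-test. Gene by gene these shares were 7.74%, 8.58%, 6.02% and 13.2%. With quantile normalization 1.77% were called at 8 h and 2.54% at 24 h. The cause of these shifts was not tested.

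For the 17 members picked by calls or F-test p to be given array by array, 912 log2 differences were recomputed. Of these, 816 kept direction and side of the threshold, 30 lost and 49 gained a call, and 17 changed sign, all small. The other members, among them SAMD9, SAMD9L, IFI44, EIF2AK2 and PLSCR1, were not in this count. IRF9 at 24 h was 0.005 with array weights and -0.033 to 0.012 without 1 array; from 8 h to 24 h it was -0.026 with quantile normalization and -0.009 with medians centred. IFIH1 at 8 h was -0.13 and -0.12 with the 2 weightings and -0.18 to 0.23 without 1 array. HERC5 at 8 h was -0.047 and -0.042 with them and -0.091 to 0.30 without 1 array. IFIT5 at 24 h was -0.062 with quantile normalization, -0.056 with medians centred and -0.041 to 0.10 without 1 array. From 8 h to 24 h, IFIT1 ranged from -0.22 to 0.017 and HERC6 from -0.040 to 0.12 without 1 array. Arrays of the same number correlated at -0.137 to 0.394 in their deviations, with 3 of 9 pairs above 0.1, so the number is not known to pair the cultures and the block was not used for the report. With the block DHX58 at 8 h and BST2 and XAF1 at 24 h missed the threshold (adjusted p = 0.0641, 0.0631 and 0.0698 in limma), and IFIT2 passed at 24 h (adjusted p = 0.0338).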
